A study of Homo sapiens with 8 samples.

Results

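The genes of polyamine synthesis and of hypusination were read in 8 libraries from human leukaemia cells, as mRNA, as ribosome footprints and as footprints per mRNA. They are 10 genes of the 20453 gene IDs in each library, chosen by name from the pathway and not by a measured value: ODC1, OAZ1, OAZ2, AZIN1, AMD1, SRM, SMS, SAT1, DHPS and DOHH. Earlier results of these data were known when the genes were chosen. All 10 were found under 1 Ensembl ID each. The libraries formed 4 groups of 2: mutant mRNA, wild-type mRNA, mutant footprints and wild-type footprints. Mutant cells had been transduced with a mutant DNMT3A and wild-type cells with the unmutated gene, so that an introduced DNMT3A is common to all 4 groups. DNMT3A places methyl groups on unmethylated DNA and is frequently mutated in myeloid leukaemia. THP-1, the name on the labels, is a line from an acute monocytic leukaemia. The labels give neither the promoter that drove the introduced gene nor the clonality of the lines.

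Polyamines (putrescine, spermidine and spermine) are small positively charged molecules that bind RNA and ribosomes and that dividing cells make in quantity. ODC1 makes putrescine from ornithine, AMD1 makes the decarboxylated S-adenosylmethionine that donates aminopropyl groups, SRM adds such a group to give spermidine, and SMS adds another to give spermine. SAT1 acetylates spermidine and spermine for breakdown or export. The antizymes OAZ1 and OAZ2 bind ODC1 and pass it to the proteasome, and AZIN1, a relative of ODC1 without its activity, takes antizyme away from it. DHPS uses spermidine to modify a lysine of the translation factor EIF5A, and DOHH then completes the change of that lysine into hypusine. Several of these proteins are controlled during translation: a full antizyme is made only when ribosomes shift frame, which polyamines favour, and the leader of AMD1 mRNA carries a short upstream open reading frame (uORF) that holds ribosomes when polyamines are plentiful.

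The AMD1 uORF lies close to the start of the transcript and is shown because footprints per AMD1 mRNA are described below; its part in them was not tested. In the RefSeq promoter table of GRCh38.p14 it begins at base 12 of the transcript. The stretch printed here, with flanking bases in small letters, is chr6:110874790-110874819, plus strand. The start codon, the 6 sense codons (start included) and the stop codon are in capitals:
AMD1 uORF: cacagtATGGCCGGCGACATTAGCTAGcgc
The 21 bases in capitals were found in 2 of 35116 promoter windows of the table, both of AMD1, whose starts lie a base apart. The counts used here are per gene, so footprints on this uORF cannot be told apart from footprints on the AMD1 coding sequence. For the same reason, antizyme footprints before and after the frameshift were counted together.

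Total counts lay between 3901659 and 4393445 in mutant and between 3415999 and 4523475 in wild-type mRNA libraries, and between 603360 and 944824 in mutant and between 1611724 and 1988513 in wild-type footprint libraries. Replicates differed little. A chi-square test of counts over genes gave 1.33 per degree of freedom for the mutant and 1.08 for the wild-type mRNA pair. It gave 0.925 for the mutant and 1.01 for the wild-type footprint pair, which therefore differed by no more than counting noise. Separate cultures behind the replicates are not recorded in the labels, so the p-values below reflect a spread that may be technical. The markers went against the label of the cells: all 10 erythroid markers read here (among them HBG2, GATA1 and KLF1) reached 10 CPM (counts per 1000000 of the library's scaled total) in every library, while 4 of 15 monocyte markers did, and S100A8, S100A9, FCN1, CD163, IRF8 and MPO had no count in any library. Of the other lists, 4 of 5 epithelial, 1 of 5 T cell and 0 of 5 B cell markers reached 10 CPM in every library. The epithelial markers summed to 912 to 915 CPM in mutant and 1164 to 1201 CPM in wild-type mRNA, and the monocyte markers to 162 to 171 CPM in mutant and 163 to 167 CPM in wild-type mRNA. The summed erythroid markers stood at 1959 to 2025 CPM in mutant and 2391 to 2403 CPM in wild-type mRNA, and the part of these marker differences in the results below was not tested. DNMT3A mRNA stood at 240 and 244 CPM in mutant and at 291 and 294 CPM in wild-type libraries (log2 change -0.27, edgeR adjusted p = 4.27e-06), the introduced and the endogenous gene being counted together. In bulk libraries, fewer cells of a type and less RNA per cell cannot be told apart.

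The first comparison asked how the mRNA of these genes differed between mutant and wild type. The pathway was split: ODC1, AZIN1 and AMD1 rose in mutant cells, and OAZ1, SRM and DOHH fell, with fold values between 0.719 and 1.35. With edgeR's quasi-likelihood test, 3 of 10 genes rose, 3 fell and 4 were not called at an adjusted p under 0.05, where 37.7% of the 10756 genes tested were called (18.9% higher and 18.9% lower). Their median log2 change was 0.16, against -0.002 over all genes tested. In 8 of the 10 both mutant libraries lay on one side of both wild-type libraries, and so did 67.9% of all genes.

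ODC1, the entry enzyme, stood at 447 and 409 CPM in mutant mRNA libraries, against 377 and 358 CPM in wild-type ones. The ODC1 groups did not overlap, and the log2 change was 0.22 (SE 0.047, edgeR adjusted p = 1.99e-05). AZIN1, which spares ODC1 from antizyme, stood at 169 and 150 CPM in mutant and at 122 and 115 CPM in wild-type libraries, the largest rise among the 10 genes (log2 change 0.44, SE 0.0684, edgeR adjusted p = 5.46e-09). OAZ1, the main antizyme, stood at 886 and 947 CPM in mutant and at 1122 and 1183 CPM in wild-type libraries. Both mutant OAZ1 values were below both wild-type values, with a log2 change of -0.33 (SE 0.0378, edgeR adjusted p = 2.54e-16). The mRNA of ODC1 and of its protector thus rose in the same libraries in which the mRNA of its inhibitor fell. OAZ2, another antizyme, had 27.4 and 23.7 CPM in mutant and 17.4 and 23.9 CPM in wild-type libraries, which overlapped (log2 difference 0.28, 95% interval -0.03 to 0.59), and was called only without wild-type mRNA replicate 2 (0.56, edgeR adjusted p = 0.0454).

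Among the enzymes downstream, AMD1 stood at 108 and 100 CPM in mutant and at 93.9 and 80.6 CPM in wild-type mRNA (log2 change 0.27, SE 0.08, edgeR adjusted p = 0.00334). SRM, which makes spermidine, stood at 253 and 254 CPM in mutant and at 291 and 309 CPM in wild-type libraries (log2 change -0.25, SE 0.0526, edgeR adjusted p = 2.89e-05). SMS, which makes spermine, had 220 and 226 CPM in mutant and 197 and 219 CPM in wild-type libraries, a difference that was not called (0.09, 95% interval -0.02 to 0.20). SAT1, the acetyltransferase, had 21.8 and 21.4 CPM in mutant and 21.0 and 16.3 CPM in wild-type libraries (0.24, 95% interval -0.09 to 0.57, not called). Of the hypusination enzymes, DOHH stood at 25.1 and 29.3 CPM in mutant and at 36.0 and 38.9 CPM in wild-type libraries, the largest fall among the 10 (log2 change -0.48, SE 0.133, edgeR adjusted p = 0.00185). DHPS, which acts before DOHH, had 66.7 and 76.9 CPM in mutant and 75.6 and 74.3 CPM in wild-type libraries, which overlapped (-0.07, 95% interval -0.24 to 0.11, not called).

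These mRNA differences were small and several rested on a single library or on the estimated spread. Under an assumed spread between replicates of 10% (biological coefficient of variation), where 2.91% of all genes were called (1.65% higher and 1.26% lower), none of the 10 passed the edgeR likelihood ratio test, with 1 higher and 2 lower at an unadjusted p under 0.05; DESeq2 called 2 higher and 2 lower, where it called 22.4% of the 6585 genes with an adjusted p (10.3% higher and 12.1% lower), but not AMD1 (adjusted p = 0.128) or DOHH (adjusted p = 0.0981). Without wild-type mRNA replicate 2 the calls of SRM (adjusted p = 0.0516), AMD1 (log2 change 0.15, adjusted p = 0.311) and DOHH (adjusted p = 0.0783) were lost, and without mutant mRNA replicate 1 those of AMD1 (adjusted p = 0.0798) and DOHH (adjusted p = 0.0819). A trend of each library with local gene density, the number of protein-coding genes within 500 kb, was also fitted over all genes. The size and direction of that trend are not reported here. OAZ1, DHPS and DOHH on chromosome 19 have 31, 41 and 29 such genes, and AZIN1, AMD1 and SMS have 6, 8 and 8. ODC1, which rose, and SRM, which fell, have 10 each, as does SAT1. OAZ2 has 17, and the median of tested genes is 13. Once that trend was removed, the log2 changes were 0.12 for ODC1, 0.27 for AZIN1, -0.17 for OAZ1 and -0.35 for SRM, all 4 still called, and the calls of AMD1 (0.14, edgeR adjusted p = 0.204) and DOHH (-0.32, edgeR adjusted p = 0.0575) were lost, where 26.8% of all genes were called (13.2% higher and 13.6% lower).

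**Figure D1:**
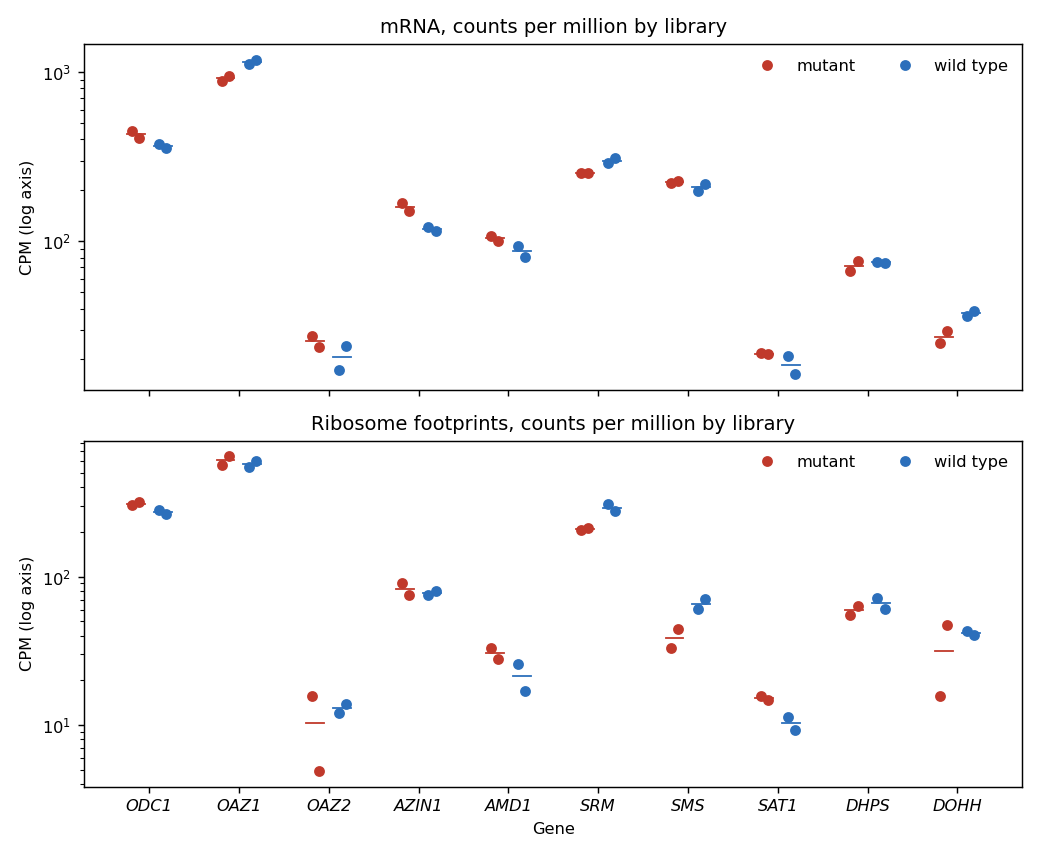
Level in CPM (log axis) of the 10 genes in each library, mRNA above and ribosome footprints below, with mutant libraries (red) left of wild-type libraries (blue). Points are libraries and short bars the mean of 2; SMS footprints lie lower in both mutant libraries (33.2 and 44.0 CPM) than in both wild-type libraries (60.5 and 70.3 CPM) while its mRNA groups lie close together.

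In footprints SRM and SMS fell in mutant cells and no member rose. Of the 10 genes 2 fell and 8 were not called by edgeR, where 21.2% of the 9181 genes tested were called (10.3% higher and 10.9% lower). The count of members called is thus near the share over all genes. At an unadjusted p under 0.05 edgeR had 2 of the 10 higher and 3 lower, and DESeq2 called 0 higher and 1 lower, where it called 12% of the 3307 genes with an adjusted p (4.02% higher and 7.98% lower). The median log2 change of the 10 was -0.05, against 0.006 over all genes tested. In 5 of the 10 both mutant libraries lay on one side of both wild-type libraries, and so did 58.8% of all genes.

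SMS footprints stood at 33.2 and 44.0 CPM in mutant libraries (32 and 27 counts), against 60.5 and 70.3 CPM in wild-type libraries (96 and 137 counts). Every mutant value was below every wild-type value, and the log2 change was -0.81 (SE 0.191, edgeR adjusted p = 0.000689), at percentile 2.4 of all genes tested. SRM footprints stood at 205 and 212 CPM in mutant and at 309 and 275 CPM in wild-type libraries (log2 change -0.49, SE 0.0912, edgeR adjusted p = 1.66e-05). Both calls were lost without mutant footprint replicate 1, which leaves the shallowest library as the only mutant one (SMS -0.58, adjusted p = 0.232; SRM -0.46, adjusted p = 0.0811). With an assumed coefficient of variation of 10%, where 3.14% of all genes were called (1.35% higher and 1.79% lower), SMS was called (edgeR adjusted p = 0.0461) and SRM was not (edgeR adjusted p = 0.0847). DESeq2 called SRM (adjusted p = 0.0138) and gave no adjusted p to SMS and 5 others of low count. With the density trend removed, both stayed lower (SMS -0.93, SRM -0.58) and OAZ1 was called higher (0.17, edgeR adjusted p = 0.0431), where 16.9% of all genes were called (7.5% higher and 9.39% lower).

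The other 8 genes did not pass the test in footprints. ODC1 had 302 and 316 CPM in mutant and 280 and 265 CPM in wild-type footprint libraries, groups that did not overlap (log2 difference 0.18, 95% interval 0.02 to 0.34, edgeR adjusted p = 0.112). OAZ1 had 566 and 647 CPM in mutant and 545 and 603 CPM in wild-type libraries, which overlapped (0.06, 95% interval -0.07 to 0.18). AZIN1 had 90.4 and 74.9 CPM in mutant and 75 and 79.6 CPM in wild-type libraries, which overlapped too (0.12, 95% interval -0.17 to 0.41). OAZ1 and AZIN1, both called in mRNA, were thus not called in footprints.

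AMD1 had few footprints: 33.2 and 27.7 CPM in mutant (32 and 17 counts) and 25.8 and 16.9 CPM in wild-type libraries (41 and 33 counts). The AMD1 groups did not overlap, and the difference of 0.57 (95% interval 0.07 to 1.07) had an edgeR adjusted p of 0.101, which became 0.0294 without wild-type footprint replicate 1 (log2 difference 0.87). SAT1 had 15.6 and 14.7 CPM in mutant and 11.3 and 9.24 CPM in wild-type libraries (0.58, 95% interval -0.12 to 1.27). DHPS had 55.0 and 63.5 CPM in mutant and 71.2 and 60.6 CPM in wild-type libraries (-0.16, 95% interval -0.49 to 0.17). The mutant DOHH footprints disagreed between replicates, with 15.6 and 47.2 CPM (15 and 29 counts), against 42.8 and 40.6 CPM in wild-type libraries. DOHH therefore had a log2 difference of -1.42 without mutant footprint replicate 2 (edgeR adjusted p = 0.00723) and of 0.18 without mutant footprint replicate 1 (edgeR adjusted p = 0.74). OAZ2 rested on 15 and 3 counts in mutant and 19 and 27 counts in wild-type footprint libraries, too few for a direction (95% interval -0.92 to 0.54).

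**Figure D2:**
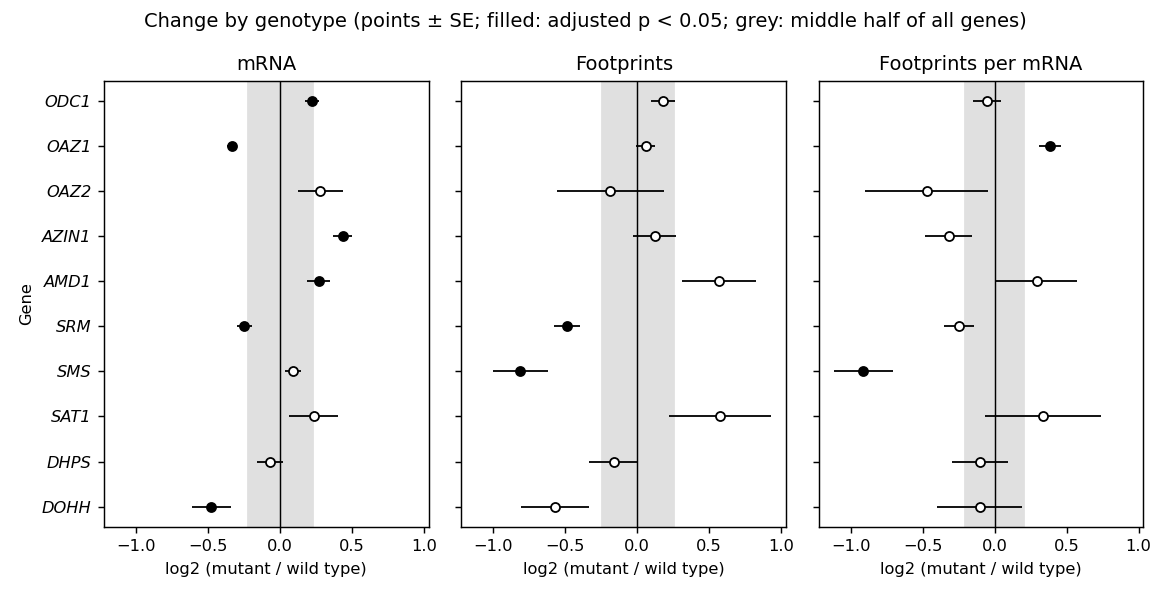
Log2 change, mutant over wild type, of the 10 genes in mRNA, footprints and footprints per mRNA, with bars of 1 SE; filled points passed edgeR's test (adjusted p under 0.05) and the grey band spans the 25th to 75th percentile of all genes tested. OAZ1 lies at -0.33 in mRNA and 0.38 in footprints per mRNA, and SMS at 0.09 and -0.91.

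The ratio of footprints to mRNA was compared between genotypes by a genotype-by-assay term fitted to all 8 libraries. OAZ1 rose and SMS fell in mutant cells, and these were the 2 calls among 10 genes, where 4.16% of the 9166 genes tested were called (1.67% higher and 2.49% lower). OAZ1 had a log2 change of 0.38 in footprints per mRNA (SE 0.0782, edgeR adjusted p = 0.000542), with less mRNA and about as many footprints in mutant as in wild-type libraries, as given above. SMS had a log2 change of -0.91 (SE 0.206, edgeR adjusted p = 0.00241), a ratio of 0.532 of mutant over wild type, with mRNA that was not called and fewer footprints. The SMS value was at percentile 1.4 of all genes tested and the OAZ1 value at percentile 88.2.

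Neither call held under every setting. Without mutant footprint replicate 2, OAZ1 had a log2 change of 0.30 (edgeR adjusted p = 0.0541), and without mutant footprint replicate 1, SMS had -0.68 (edgeR adjusted p = 0.269). With an assumed coefficient of variation of 10%, where 0.142% of all genes were called (0.0327% higher and 0.109% lower), none of the 10 passed (OAZ1 adjusted p = 0.911, SMS adjusted p = 0.378), with 0 higher and 1 lower at an unadjusted p under 0.05. DESeq2 called both (OAZ1 adjusted p = 0.0111, SMS adjusted p = 0.0152), where it called 2.79% of the 4723 genes with an adjusted p (0.847% higher and 1.95% lower). Removal of the density trend left both called (OAZ1 0.33, SMS -0.89), where 4.33% of all genes were called (1.55% higher and 2.78% lower).

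**Figure D3:**
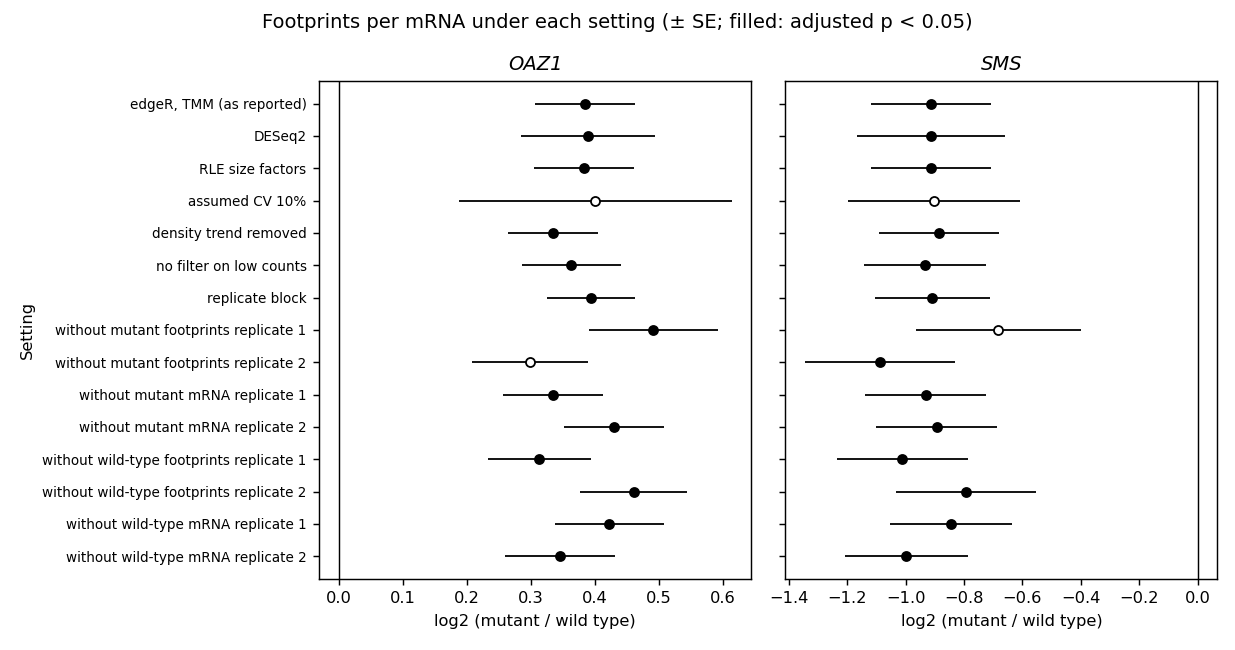
Log2 change in footprints per mRNA, mutant over wild type, of OAZ1 (left) and SMS (right) under each setting, with bars of 1 SE and filled points for an adjusted p under 0.05. OAZ1 lies between 0.30 and 0.49 and SMS between -1.09 and -0.68, so the direction held in all 15 settings shown while the call was lost in 2 settings for each gene.

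The remaining 8 genes did not pass the test in footprints per mRNA, with intervals that allow sizeable differences. ODC1 had the narrowest interval of the 8 (-0.05, 95% interval -0.24 to 0.14), with log2 values of 0.22 in mRNA and 0.18 in footprints. SRM had -0.25 (95% interval -0.45 to -0.04, edgeR adjusted p = 0.205) and AZIN1 -0.32 (95% interval -0.64 to 0.00, edgeR adjusted p = 0.31). AMD1, whose leader carries the uORF shown above, had 0.29 (95% interval -0.26 to 0.84, edgeR adjusted p = 0.651), and -0.01 without wild-type footprint replicate 2. SAT1 and OAZ2, both of low count, had 0.34 and -0.47 with intervals of -0.45 to 1.13 and -1.31 to 0.37. DHPS and DOHH both had -0.10, with intervals of -0.49 to 0.28 and -0.68 to 0.47. Among all 10 genes 3 values were above 0 and 7 below, with a median of -0.10, against -0.001 over all genes tested.

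Footprints were then set against mRNA within each genotype, to ask which of these mRNAs carried more or fewer footprints than the centre of all genes. Gene length largely cancels in this ratio if both assays were counted over the coding sequence, but the counted feature is not stated. Counted over whole transcripts, the ratio would also depend on the share of each transcript that is coding. The part of that share in the values below was not tested. In the mutant, 7 of 10 genes lay below the centre and none above it by edgeR's test, where 59.9% of the 9166 genes were called (29.9% higher and 29.9% lower). In the wild type, 7 of 10 lay below and none above, where 70.1% were called (35.6% higher and 34.4% lower), and at an unadjusted p under 0.05 none was above in either genotype. DESeq2 also placed none above the centre, with 7 below in the mutant, where it called 49.8% of all genes (25.6% higher and 24.2% lower), and 6 in the wild type, where it called 57.6% (29.2% higher and 28.4% lower). With an assumed coefficient of variation of 10%, 6 of 10 lay below in the mutant, where 48% of all genes were called (23.9% higher and 24% lower), and 7 of 10 in the wild type, where 57.2% were called (28.6% in each direction). The median log2 value of the 10 was -0.57 in the mutant and -0.66 in the wild type, against -0.007 and 0.02 over all genes tested.

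AMD1 and SMS carried the fewest footprints per mRNA of the 10. SMS stood at -2.59 in the mutant (SE 0.143, edgeR adjusted p = 4.49e-27) and at -1.68 in the wild type (SE 0.0923, edgeR adjusted p = 1.41e-27), which are percentiles 0.5 and 3.0 of all genes. AMD1 stood at -1.76 in the mutant (SE 0.178, edgeR adjusted p = 4.52e-14) and at -2.05 in the wild type (SE 0.15, edgeR adjusted p = 7.67e-21), percentiles 2.0 and 1.3. SMS was lowest in the mutant as reported, with a gap to AMD1 over 2 SE that kept its sign in all 13 alternatives and its size over 2 SE in 12 (0.43, SE 0.354, without mutant footprint replicate 1). OAZ2 was lowest in that last setting, at -2.40 on 3 footprint counts, below SMS at -2.36 and AMD1 at -1.94. In the wild type AMD1 was lowest, but that order rested on 1 library: without wild-type footprint replicate 2, AMD1 stood at -1.74 and SMS at -1.79. The wild-type gap was also under 2 SE without wild-type mRNA replicate 1 (0.21, SE 0.192), with DESeq2 (0.38, SE 0.259) and with the assumed 10% (0.38, SE 0.279).

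With no library left out, the antizymes and their inhibitor lay between these genes and the centre. OAZ1 stood at -0.63 in the mutant (SE 0.0591) and at -1.01 in the wild type (SE 0.0474), OAZ2 at -1.18 (SE 0.321) and -0.71 (SE 0.235), and AZIN1 at -0.94 (SE 0.121) and -0.62 (SE 0.0981). All 6 of these values were called below the centre, that of OAZ2 in the mutant no longer so without mutant footprint replicate 2 (-0.74, edgeR adjusted p = 0.0776), and that of OAZ2 in the wild type no longer so without wild-type mRNA replicate 2 (-0.43, edgeR adjusted p = 0.163) or wild-type footprint replicate 1 (edgeR adjusted p = 0.055), nor with DESeq2 (adjusted p = 0.0684). ODC1 stood at -0.49 in the mutant (SE 0.0728) and at -0.44 in the wild type (SE 0.0599), both called. SAT1 had -0.52 in the mutant (SE 0.291, not called) and -0.86 in the wild type (SE 0.248, called, but not without wild-type footprint replicate 2, adjusted p = 0.0697).

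With no library left out, SRM and the hypusination enzymes lay nearest the centre. SRM had -0.31 in the mutant (SE 0.0867, edgeR adjusted p = 0.00173, but 0.0719 without mutant footprint replicate 1 and 0.126 with the assumed 10%) and -0.06 in the wild type (SE 0.06, not called). DHPS had -0.31 and -0.21, and DOHH 0.03 and 0.13, in mutant and wild type, none of them called. With a library left out, DHPS in the mutant was called lower without mutant mRNA replicate 1 (-0.41). DOHH in the mutant was called in opposite directions: higher without mutant footprint replicate 1 (0.78) and lower without mutant footprint replicate 2 (-0.82). In the order of the 10 values, 2 of 9 neighbouring gaps exceeded 2 SE in the mutant (OAZ1 over AZIN1 and AMD1 over SMS) and 2 of 9 in the wild type (OAZ1 over SMS and SMS over AMD1). Of these, OAZ1 over SMS in the wild type exceeded 2 SE in all 13 alternatives, SMS over AMD1 in the wild type in 9, AMD1 over SMS in the mutant in 12, and OAZ1 over AZIN1 in the mutant in 9. The gap of OAZ1 over AZIN1 was 0.17 (SE 0.141) without mutant mRNA replicate 1 and 0.13 (SE 0.167) without mutant footprint replicate 2. The other neighbours were not separated beyond 2 SE.

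**Figure D4:**
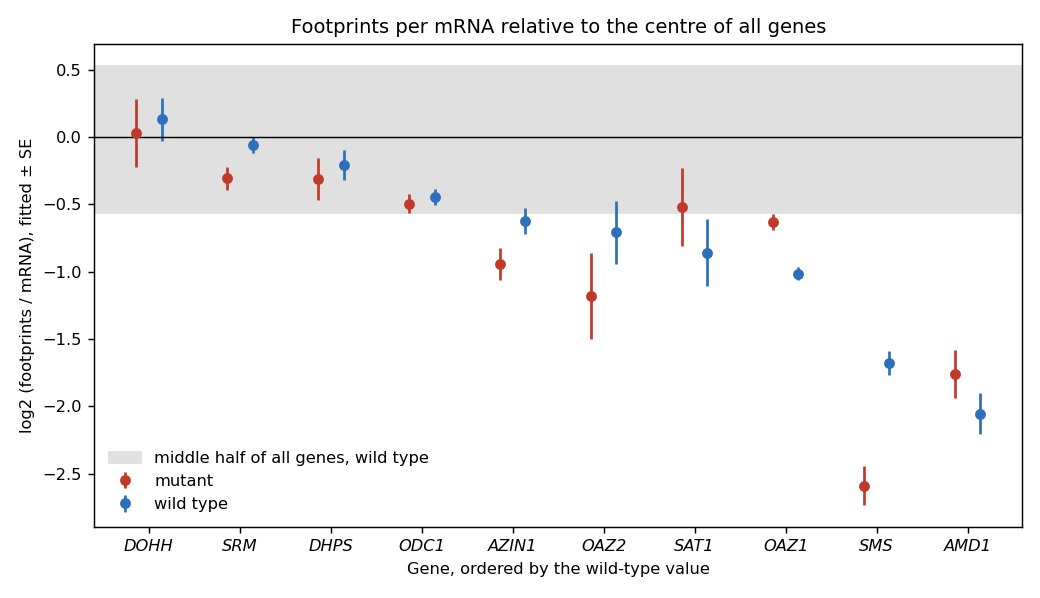
Fitted log2 ratio of footprints to mRNA, with bars of 1 SE, for the 10 genes in mutant (red, left) and wild-type (blue, right) cells, ordered by the wild-type value; 0 is the centre set by the scaling and the grey band spans the 25th to 75th percentile of all genes in the wild type. AMD1 (-1.76 mutant, -2.05 wild type) and SMS (-2.59 mutant, -1.68 wild type) lie lowest, and OAZ1 lies higher in the mutant (-0.63) than in the wild type (-1.01).

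The other genes of the pathway were read from a list of 28, which holds the substrate of hypusination, polyamine oxidases and transporters, enzymes of ornithine and S-adenosylmethionine supply, and MYC. In mRNA 14 of the 28 were tested, of which 3 rose and 3 fell, where 37.7% of all genes were called. In footprints 12 were tested, of which 1 rose and 2 fell, where 21.2% were called, and in footprints per mRNA 1 of 12 was called, higher, where 4.16% were. The list's counts in mRNA and footprints are near these shares. Their median log2 changes were 0.02, 0.27 and 0.10 in these comparisons, in that order, against -0.002, 0.006 and -0.001 over all genes tested. MTAP, which salvages the by-product of spermidine and spermine synthesis, had no count in any of the 8 libraries, which allows at most 0.663 to 0.878 CPM in an mRNA library, for counting error only. SATL1, AGMAT, SLC22A2 and SLC47A1 had none either, and 9 others had at most 19 counts over all libraries.

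EIF5A, the protein that DHPS and DOHH modify, had 513 and 511 CPM in mutant and 545 and 554 CPM in wild-type mRNA libraries (log2 difference -0.10, edgeR adjusted p = 0.0504), a sign that turned once the density trend was removed (0.16, edgeR adjusted p = 0.0011). Its footprints stood at 628 and 639 CPM in mutant and at 785 and 724 CPM in wild-type libraries (log2 change -0.25, SE 0.0598, edgeR adjusted p = 0.000884), a call that was lost without mutant footprint replicate 1 (adjusted p = 0.149), with DESeq2 (adjusted p = 0.0565), with the assumed 10% (adjusted p = 0.388) and with the density trend removed (-0.07, adjusted p = 0.447). EIF5A has near-identical copies such as EIF5AL1, between which reads may be split. MYC, a transcription factor known to drive ODC1 and SRM, fell in both assays, to 974 and 980 CPM in mutant mRNA, against 1273 and 1263 CPM in wild-type mRNA (log2 change -0.38, SE 0.0373, edgeR adjusted p = 3.23e-21). MYC footprints stood at 946 and 989 CPM in mutant and at 1370 and 1376 CPM in wild-type libraries (log2 change -0.51, SE 0.0503, edgeR adjusted p = 4.07e-15). ODC1 mRNA rose and SRM mRNA fell in these same libraries.

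MYC binds with its partner MAX to the E-box, the letters CACGTG, which read the same on both strands. These letters were sought in the RefSeq promoter windows, from 250 bases before to 50 bases after each transcript start, and were found in 3 of the 12 windows of these genes, against 7.26% of all 35116 windows. The 3 windows belong to 3 of the 9 genes that have one, since AZIN1 was not matched. The stretches are shown because the 3 genes did not move together in mRNA. The E-box is in capitals, and the coordinates are of GRCh38.p14, minus strand: SRM at chr1:11060200-11060229, ODC1 at chr2:10448024-10448053 and chr2:10447990-10448019, and DOHH at chr19:3500666-3500695.
SRM, 199 bases upstream: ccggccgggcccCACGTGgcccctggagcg
ODC1, later start, 29 bases upstream: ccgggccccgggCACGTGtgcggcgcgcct
ODC1, later start, base 6 of the transcript: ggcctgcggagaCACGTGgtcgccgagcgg
DOHH, 9 bases upstream: gtccggcacggtCACGTGggcgagaaaatg
SRM and DOHH mRNA fell and ODC1 mRNA rose, with the values given above. A match of letters is a description and not a measured binding site.

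The supply of precursors and the transporters were split as well. MAT2A, which makes S-adenosylmethionine, stood at 181 and 181 CPM in mutant and at 152 and 147 CPM in wild-type mRNA (log2 change 0.28, SE 0.0636, edgeR adjusted p = 0.000123), and its regulatory partner MAT2B at 57.0 and 49.6 CPM in mutant and at 43.1 and 41.4 CPM in wild-type mRNA (log2 change 0.35, edgeR adjusted p = 0.00676). The MAT2B call was lost with the density trend removed (adjusted p = 0.241), with DESeq2 (adjusted p = 0.148), without wild-type mRNA replicate 2 (adjusted p = 0.104) and without mutant mRNA replicate 1 (adjusted p = 0.196). SLC7A1, a carrier of arginine and ornithine, fell in mRNA to 158 and 170 CPM in mutant, against 189 and 190 CPM in wild-type libraries (log2 change -0.21, edgeR adjusted p = 0.00267, but 0.0755 without wild-type mRNA replicate 2, 0.0829 without mutant mRNA replicate 1 and 0.0928 with DESeq2). ATP13A3, a P-type ATPase linked to polyamine uptake, rose in both assays. Its mRNA stood at 257 and 240 CPM in mutant and at 204 and 202 CPM in wild-type libraries (log2 change 0.29, edgeR adjusted p = 3.11e-06), and its footprints at 140 and 124 CPM in mutant and at 85.7 and 80.1 CPM in wild-type libraries (log2 change 0.70, SE 0.129, edgeR adjusted p = 1.31e-05; 0.0862 without mutant footprint replicate 1).

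ATP13A2, a lysosomal polyamine exporter, showed the pattern of OAZ1, with less mRNA and more footprints per mRNA in the mutant. Its mRNA stood at 154 and 150 CPM in mutant and at 184 and 190 CPM in wild-type libraries (log2 change -0.30, edgeR adjusted p = 1.59e-05). Its footprints, at 72.7 and 79.8 CPM in mutant and at 68.7 and 51.3 CPM in wild-type libraries, were not called (log2 difference 0.35, edgeR adjusted p = 0.114). Footprints per ATP13A2 mRNA had a log2 change of 0.65 (SE 0.178, edgeR adjusted p = 0.0196), which was lost without mutant footprint replicate 1, mutant footprint replicate 2 or wild-type footprint replicate 2 (adjusted p of 0.141, 0.143 and 0.276 in that order), with DESeq2 (adjusted p = 0.102) and with the assumed 10% (adjusted p = 0.706). With an assumed coefficient of variation of 10%, none of MAT2A, MAT2B, SLC7A1, ATP13A2, ATP13A3 and MYC was called in mRNA (adjusted p from 0.114 to 0.414).

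**Figure D5:**
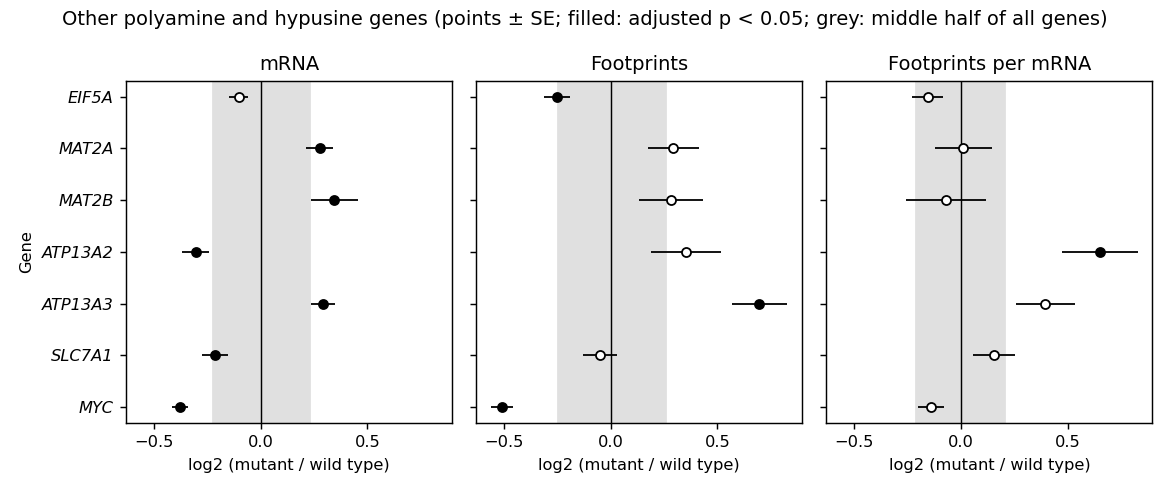
Log2 change, mutant over wild type, with bars of 1 SE, of EIF5A and of the listed genes called in at least 1 comparison, in mRNA, footprints and footprints per mRNA; filled points passed edgeR's test and the grey band spans the 25th to 75th percentile of all genes tested. ATP13A3 lies at 0.29 in mRNA and 0.70 in footprints, and MYC at -0.38 and -0.51.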

How the data were processed

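Each deposited file holds whole-number counts per Ensembl gene for 1 library, without normalization. STAR, Bowtie2, featureCounts, Trimmomatic and cutadapt are named in the submitters' processing notes, with hg38 and GRCh38 as builds and no roles or versions. Annotation, strand setting, counted feature and treatment of multiply matching reads: not given in the sources used here, so genes with near-identical copies are uncertain. Per the labels' protocols, mRNA was copied with oligo(dT), and footprints were made with RNase I and depleted of ribosomal RNA. Symbols were matched for 20407 of 20453 IDs.

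The tests used edgeR 4.0.16 under R 4.3.3 (glmQLFit with legacy set to FALSE, glmQLFTest), TMM factors within each assay, filterByExpr, and Benjamini-Hochberg adjustment over all genes tested, with calls at an adjusted p under 0.05. Footprint-to-mRNA contrasts and their difference between genotypes came from 1 model over 8 libraries. CPM are counts per 1000000 of the library total after TMM. Errors cover counting and the spread between libraries only, and PCR copies were not told apart. Alternatives were DESeq2 1.42.0, RLE factors, no filter, each library left out, a replicate block, an assumed coefficient of variation of 10% (likelihood ratio test) and removal of the trend with gene density. The procedure was tested on simulated counts. The members and lists were chosen with earlier results of these data known. Named were all 10 members, DNMT3A, EIF5A and every listed gene called in a genotype comparison; the listed genes without a count were named after their values were seen. 1 marker gene of the erythroid list is not reported here.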

Additional observations from a re-analysis of the deposited data

How the results depend on the processing

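Results are given as members called of 10 (6 in mRNA, 2 in footprints, 2 in footprints per mRNA and 7 in each footprint-to-mRNA contrast as reported) and as all genes called (4060, 1950 and 381 in the 3 genotype comparisons). With an assumed coefficient of variation of 10%, members called were 0, 1 and 0, and all genes called 313, 288 and 13. With DESeq2 all genes called were 1474, 397 and 132, and 1 member was called in footprints, where 6 had no adjusted p. With libraries left out in turn, members called ranged from 4 to 6 in mRNA, 0 to 3 in footprints and 1 to 2 in footprints per mRNA, and all genes called from 2280 to 3838, 274 to 1799 and 142 to 448; the 274 and the 142 arose without mutant footprint replicate 1, the deeper mutant footprint library. Counts of members in the footprint-to-mRNA contrasts ranged from 7 to 8 in the mutant and 6 to 7 in the wild type with libraries left out, while all genes called ranged from 3995 to 5527 (mutant) and 5532 to 6615 (wild type). RLE factors and the lack of a filter changed no member's call or direction. The density trend reversed DHPS (0.15), SMS (-0.043) and EIF5A (0.16) in mRNA and AZIN1 (-0.027) in footprints; the cause was not tested. Members that did not pass the test also turned in sign with a library left out, over these ranges: in mRNA DHPS -0.16 to 0.04; in footprints AZIN1 -0.049 to 0.219, OAZ1 -0.027 to 0.167, OAZ2 -1.40 to 0.26 and DOHH -1.42 to 0.18; in footprints per mRNA AMD1 -0.013 to 0.593, DHPS -0.229 to 0.017, DOHH -0.95 to 0.65 and ODC1 -0.112 to 0.017; in footprints against mRNA DOHH -0.82 to 0.78 (mutant) and SRM -0.131 to 0.039 (wild type).

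The groups share replicate numbers, but the labels do not say that a number marks a shared culture or day. Deviations of same-numbered libraries correlated at 0.0562 (mRNA) and 0.033 (footprints) across genotypes, and at 0.0429 (mutant) and 0.0195 (wild type) across assays. With a replicate block, members called remained 6, 2 and 2 in the genotype comparisons and 7 and 7 in the footprint-to-mRNA contrasts, and all genes called were 4168, 2076 and 598. OAZ2, SAT1, AMD1, SMS and DOHH are limited by depth, with at most 32 footprint counts in a mutant library.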

Other observations

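Apart from the AMD1 uORF, frames from a start codon to a stop codon lay wholly within the first 50 transcribed bases of the RefSeq windows of DOHH (13 sense codons, from base 7) and DHPS (4 sense codons, from base 7). These windows are genomic, so a frame that runs over a splice site would not be recognised. Of other letters sought on both strands, GGGCGG was found in 10 of 12 windows of the members, against 45% of all windows, CCAAT in 6, against 34.6%, and TATAAA in 1, that of OAZ1, against 11.5%. By gene, GGGCGG was found in 7 of the 9 members with a window and CCAAT in 6. AMD1 has 3 of the windows and ODC1 has 2, so the windows are not independent.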
